A study of Mus musculus with 2 samples.

Results

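The genes described here are 33 mouse germ cell and testis genes, chosen by symbol for their known expression in the male or female germ line, and read in medullary thymic epithelial cells. Of the 33 symbols, 32 matched a row of the deposited count table, out of 23003 genes with a symbol, and each gene was represented by its most read transcript. Piwil4 had no matched row, so its reads were not compared, and it entered only the promoter counts. The genes were grouped by role into meiosis (7 genes), the piRNA pathway (10 symbols, 9 matched), sperm structure and sperm metabolism (11), germ cell regulators (3) and the oocyte coat (2). Of the 32, 28 held at least 10 reads over both libraries and were compared.

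The cells were mTEChi, the medullary thymic epithelial cells with high MHC class II, sorted as CD45-negative with low or intermediate Ly51. Clp1 KD cells were GFP+ and Ctr cells were GFP-, with 1 library for each, and both came from the thymus of a single B6 lentigenic mouse. The mouse was selected for integration of the constructs (shRNAs against Clp1 and a ZsGreen reporter behind the doxycycline-inducible TRE3G promoter, and the TetOn3G transactivator behind EF1), and both groups shared its doxycycline food, given at 2 g/kg for 2 weeks from 3 weeks of age. Whether every Ctr cell carried the constructs was not tested. The fluorescence gate set the groups apart, and the animal was 1 pup raised from an injected oocyte, so no replicate measured the spread between animals or sorts and no test across samples was possible. The comparison asks how a lower level of Clp1, a subunit of the machinery that cleaves and polyadenylates pre-mRNA, bears on transcripts of mTEChi.

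Mature medullary thymic epithelial cells transcribe many genes of other tissues at low level, much of it under the control of Aire, and display the products to developing T cells. Germ cell genes are among these antigens. In the germ line itself, meiosis genes pair, cut and join homologous chromosomes, the piRNA pathway loads small RNAs onto PIWI proteins to silence transposons in granules built by Tudor domain proteins, and sperm structure genes pack the chromatin and build the acrosome, flagellum and energy supply of the sperm.

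The Clp1 KD library held 37524730 reads and the Ctr library 28464803. Clp1 had 812 reads in Clp1 KD against 1573 in Ctr, which after scaling left 39.7% of the Ctr level (exact 95% interval 36.4 to 43.2%). Per the paper, few of the pups carrying both constructs expressed them in mTEChi, and the profiled pup was the one with reduced Clp1 mRNA. This value is therefore not an independent check of the knockdown. Aire had 8264 reads in Clp1 KD and 7462 in Ctr, a log2 ratio of -0.23. Markers of mature mTEC summed to 802495 scaled reads in Clp1 KD and 723807 in Ctr (11 of 11 genes measured, median log2 ratio 0.34), and those of thymic epithelium to 178544 and 119049 scaled reads in Clp1 KD and Ctr (8 of 8, median 0.93). Of the 11 mature mTEC markers, 1 was called higher and 1 lower in Clp1 KD. Of the 8 thymic epithelium markers, 4 were called higher and 0 lower. By the same rule, given below, 21.9% of all genes with at least 10 reads were called higher and 19.7% lower. These shares were 24.7% and 26.8% from 100 to under 1000 reads, and 11.3% and 9.77% at 1000 or more. Markers of other thymic cells were lower in Clp1 KD. Thymocyte markers summed to 4768 scaled reads in Clp1 KD against 16635 in Ctr (9 of 12 called lower), B cell markers to 600 in Clp1 KD against 1938 in Ctr (5 of 6) and endothelial markers to 2055 in Clp1 KD against 20417 in Ctr (7 of 7). Fibroblast markers summed to 4363 scaled reads in Clp1 KD against 15425 in Ctr (6 of 7) and red cell markers to 2071 in Clp1 KD against 61892 in Ctr (3 of 3), where Hba-a1 and Hba-a2, which carried identical counts, were taken once. None of the markers in these 5 lists was at 0 in either library. Megakaryocyte and platelet markers summed to 676 scaled reads in Clp1 KD and 911 in Ctr, with 2 genes higher and 3 lower of 6. The part of these cells in the results below was not tested, and in such bulk RNA fewer cells expressing a gene and less RNA per cell cannot be told apart.

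Ratios below are Clp1 KD over Ctr, on scaled reads, with an exact 95% interval of the share of reads that lay in the Clp1 KD library. The interval covers counting error only, and since reads amplified by PCR without molecular identifiers are not independent molecules, it is too narrow as a measure of error between cells. A gene was called higher or lower where it had at least 10 reads, a ratio of 2 or more in either direction and an interval that excluded 0. Where a library had 0 reads, 3 reads were taken in its place, and the fold at that floor is given. This fold leaves out the counting error of the other library. The interval bound nearest 0, given beside it on the log2 scale, marks a smaller fold.

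By this rule 11 of the 28 genes were higher in Clp1 KD and 6 were lower, with 11 called neither way. Among all 18543 genes with at least 10 reads, 21.9% were called higher and 19.7% lower, and among the 15138 genes within the range of read totals of the set, 24.8% and 22.8%. The germ cell genes were mostly low, and low genes were called more often in both directions. Among genes with 10 to 99 reads, 42.8% were called higher and 30.3% lower, against 7 and 5 of the 18 germ cell genes in that range (38.9% and 27.8%). From 100 to under 1000 reads the shares were 24.7% and 26.8% of all genes, against 4 and 1 of 8 germ cell genes (50% and 12.5%). The share of germ cell genes that was called thus lay near that of other genes from 10 to 99 reads. From 100 to under 1000 reads it lay further off, but 8 genes are too few to compare shares. The median log2 ratio of the 28 was 0.54, beside 0.03 over all genes and 0.55 over all genes with 10 to 99 reads. The direction differed between the roles, as the ratios of the single genes show. The shares of all genes given here are the background for the counts by role and by list below.

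**Figure D1:**
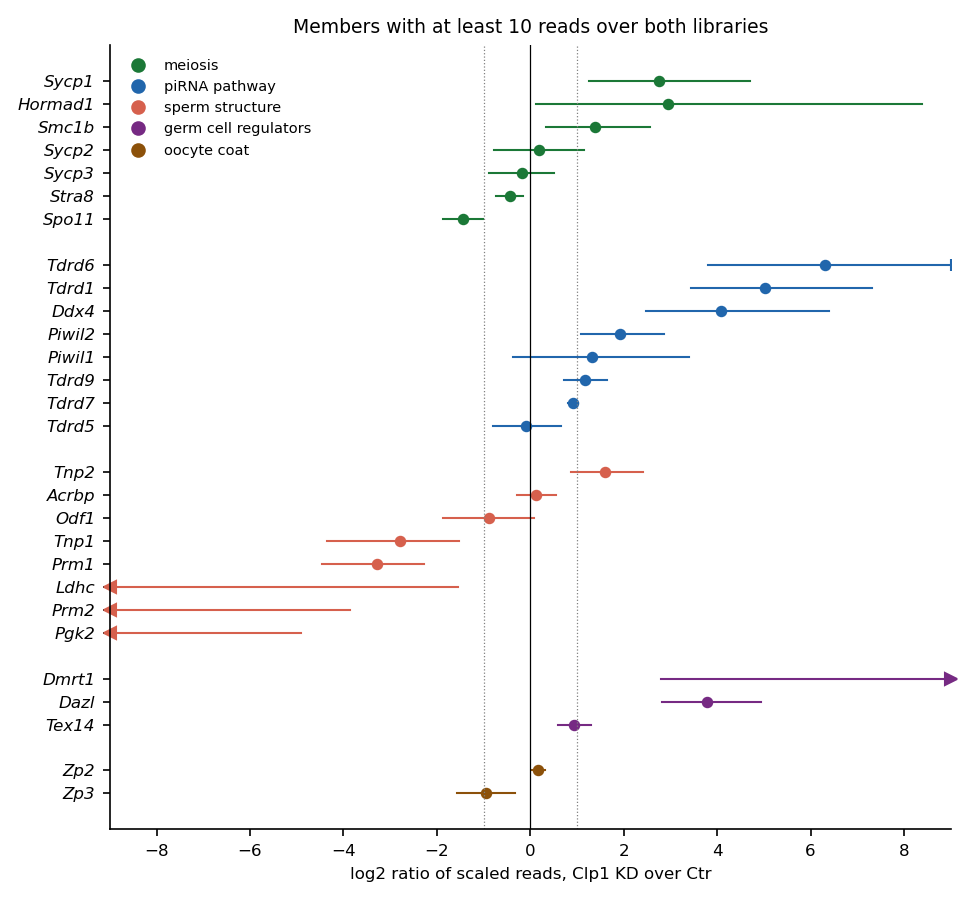
The log2 ratio of scaled reads, Clp1 KD over Ctr (x axis), is shown for the 28 germ cell and testis genes with at least 10 reads, coloured by role, with exact 95% counting intervals as lines; dotted lines mark a 2-fold difference, arrowheads mark genes with 0 reads in a library and the interval of Tdrd6 runs past the axis. piRNA pathway genes lay mostly to the right (5 of 8 called higher) and sperm structure genes mostly to the left (5 of 8 called lower).

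The genes of the piRNA pathway were higher in Clp1 KD in 5 of 8 cases and lower in none, with a median log2 ratio of 1.56. Among all genes with 10 to 99 reads, 42.8% were called higher and 30.3% lower, and from 100 to under 1000 reads 24.7% and 26.8%. Tdrd6, a multiple Tudor domain protein of the chromatoid body, had 103 reads in Clp1 KD against 1 in Ctr, a log2 ratio of 6.31 (3.80 to 11.63). Tdrd1, which binds the PIWI protein MILI, had 127 reads in Clp1 KD against 3 in Ctr (5.03, 3.45 to 7.32). Ddx4, the Vasa helicase of germ granules, had 66 reads in Clp1 KD against 3 in Ctr (4.08, 2.47 to 6.40). In Ctr these 3 genes lay at or under the floor of 3 reads (3.42 scaled reads), while in Clp1 KD they had between 57.9 and 111 scaled reads.

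Piwil2, which encodes MILI itself, had 69 reads in Clp1 KD and 14 in Ctr (1.92, 1.08 to 2.87). Tdrd9, a helicase with a Tudor domain, had 162 reads in Clp1 KD and 55 in Ctr (1.18, 0.73 to 1.65). Both were thus called higher by a smaller ratio and from a Ctr level that was above the floor. Piwil1, the MIWI gene of later spermatogenesis, had 13 reads in Clp1 KD and 4 in Ctr, and its interval (-0.37 to 3.40) included 0. Tdrd5 had 38 reads in Clp1 KD and 31 in Ctr (-0.08, -0.81 to 0.65), so no difference was detectable at this depth. Mael had 2 reads in Clp1 KD and 0 in Ctr and was not compared.

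Tdrd7, a Tudor domain gene also needed in the eye lens, stood apart by its level. It had 2260 reads in Clp1 KD and 923 in Ctr, or 17.2 and 9.24 RPKM (reads per kb of transcript, scaled to library depth) in Clp1 KD and Ctr, the highest level per length among all the Clp1 KD values of the set. Its log2 ratio of 0.91 (0.80 to 1.03) fell just short of the 2-fold limit. Summed over the pathway, the reads came to 2840 in Clp1 KD and 1034 in Ctr, and without Tdrd7 to 580 in Clp1 KD and 111 in Ctr, a log2 ratio of sums of 2.01.

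Promoters of these genes shared short sequence features that were looked for after their values were known. The letters CACGTG, the E-box core read by basic helix-loop-helix factors such as MAX (the same on both strands), were found between 250 bases before and 50 bases after the start of 5 of 8 piRNA pathway genes and 3 of 6 meiosis genes. They are printed here for the 5 genes that were higher in Clp1 KD and held them, in capitals within 30 bases (RefSeq, GRCm38.p6, 5′ to 3′ on the strand of the gene), to show the letters around the core.
Ddx4, chr13:112652322-112652351, minus strand: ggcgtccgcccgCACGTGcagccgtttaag
Tdrd1, chr19:56826186-56826215, plus strand: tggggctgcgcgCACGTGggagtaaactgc
Tdrd9, chr12:111971452-111971481, plus strand: gcacgaggctccCACGTGcatgcagggcct
Sycp1, chr3:102936177-102936206, minus strand: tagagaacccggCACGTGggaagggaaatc
Hormad1, chr3:95559645-95559674, plus strand: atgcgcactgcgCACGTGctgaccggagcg
The core began 29 bases before the start in Ddx4, 11 in Tdrd1, 95 in Tdrd9, 94 in Sycp1 and 20 in Hormad1. The 30 bases lie upstream of the gene, except in Tdrd1, where they reach into the first exon. The core was also in the promoters of Piwil1, Sycp3 and Zp3, which were called neither way, and of Mael and Crisp2, which had too few reads. Smc1b, Dazl and Tnp2, called higher, did not hold it.

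Promoters were looked up for all 33 symbols and found for 26. Odf1, Acr, Spo11, Piwil2, Tdrd6, Zp2 and Dmrt1 had no promoter entry. Tdrd6, Piwil2 and Dmrt1, called higher, and Spo11, called lower, are thus missing from the promoter counts by call. CACGTG was in 10 of these 26 genes (38.5%), against 8.09% of 27025 genes and 12.3% of the 12388 genes with 10 or more CpG dinucleotides in the window. The other motif that was searched for in the same genes, TCCCGC on either strand, the core bound by E2F factors such as E2F6, was in 9 of 26 (34.6%), against 22.1% of all genes and 42.7% of those with 10 or more CpG. TGACGTCA, the cyclic AMP response element, was in none, against 2.03% of all genes. The E-box share thus stood above both backgrounds, and the TCCCGC share lay between them. Only 19 of the 26 genes had 10 or more CpG, so the CpG-rich background is not a like set. By role, TCCCGC was in 4 of 6 meiosis genes, 3 of 8 piRNA pathway genes and 0 of 9 sperm structure genes.

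**Figure D2:**
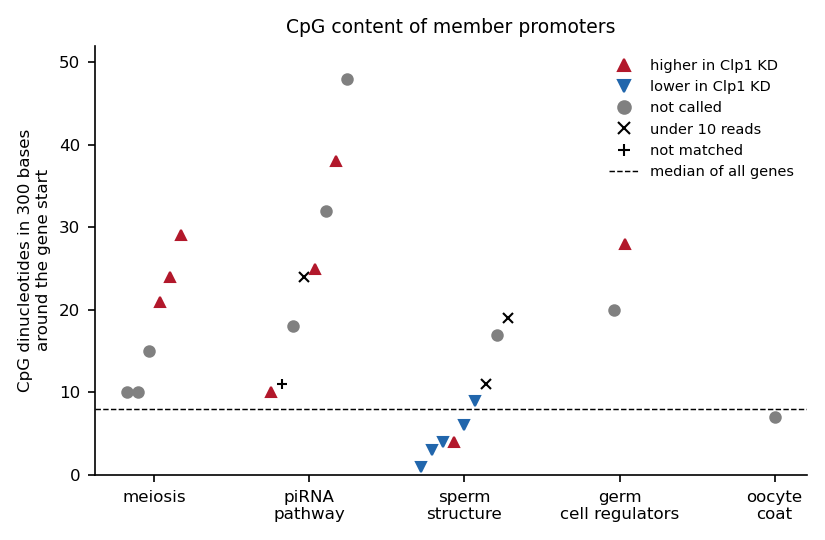
CpG dinucleotides in the window around the gene start, 250 bases before to 50 after it, (y axis) are plotted for each gene with a promoter entry, by role (x axis), taking the highest count where a gene has several starts; marker shape gives the call in Clp1 KD against Ctr and the dashed line the median of all genes (8). All piRNA pathway and meiosis genes had 10 or more, and the sperm structure genes called lower had 1 to 9.

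CpG content differed between the roles as well. The median was 24.5 CpG for the piRNA pathway, 18 for meiosis and 6 for sperm structure, beside 8 over all genes. Genes called higher had a median of 24.5 (8 genes, 4 to 38) and genes called lower a median of 4 (5 genes, 1 to 9). The low end of the genes called higher was Tnp2, a sperm structure gene. Role and CpG content went together in this set, so a relation of the calls to one cannot be told apart from a relation to the other.

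Meiosis genes went both ways. Sycp1, the transverse filament of the synaptonemal complex, was higher, with 35 reads in Clp1 KD against 4 in Ctr (2.75, 1.27 to 4.70). Smc1b, the meiotic cohesin subunit, had 34 reads in Clp1 KD and 10 in Ctr (1.39, 0.34 to 2.57). Hormad1, a protein of the chromosome axis, had 10 reads in Clp1 KD and 1 in Ctr (2.94, 0.13 to 8.38), a call that rests on 11 reads. Spo11, the enzyme that makes the meiotic DNA breaks, went the other way, with 69 reads in Clp1 KD against 143 in Ctr (-1.43, -1.87 to -1.01).

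The other 3 meiosis genes were called neither way. Sycp2, of the lateral element, had 25 reads in Clp1 KD and 17 in Ctr (0.18, -0.77 to 1.16). Stra8, induced by retinoic acid at entry into meiosis, was the most abundant of the role with 202 reads in Clp1 KD and 211 in Ctr (-0.44, -0.73 to -0.16), or 3.70 and 5.09 RPKM in Clp1 KD and Ctr. Sycp3 had 40 reads in Clp1 KD and 35 in Ctr (-0.19, -0.88 to 0.51). Of its 1264 annotated exon bases, 660 lie opposite exons of Chpt1, a phospholipid enzyme gene with 1284 reads in Clp1 KD and 483 in Ctr. The use of strand in counting was not stated, so these reads cannot be told apart from those of Chpt1; all 35 Ctr reads lay in the last exon of Sycp3. Over the role the median log2 ratio was 0.17, but -0.44 over the 3 genes with at least 50 reads and -0.18 with every transcript counted apart, and the reads summed to 415 in Clp1 KD and 421 in Ctr.

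Sperm structure genes were lower in Clp1 KD in 5 of 8 cases and higher in 1. The median log2 ratio was -2.94, or -2.40 with the 3 genes at 0 reads set to their folds at the floor. Among all genes with 10 to 99 reads, 30.3% were called lower and 42.8% higher. The genes that package sperm DNA gave most of these calls. Prm1, a protamine, had 9 reads in Clp1 KD against 67 in Ctr (-3.27, -4.46 to -2.26). Prm2, the other protamine, had 0 reads in Clp1 KD against 43 in Ctr, 18.6-fold lower at the floor (interval below -3.86). Tnp1, a transition protein that precedes the protamines on the chromatin, had 6 reads in Clp1 KD against 32 in Ctr (-2.79, -4.34 to -1.52). Tnp2, the second transition protein, was higher instead, with 75 reads in Clp1 KD and 19 in Ctr (1.60, 0.86 to 2.41).

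Prm1, Prm2 and Tnp2 are neighbours on the minus strand of chromosome 16, with Prm3 between the last pair. On mm9, Prm1 spans 10796419 to 10796979, Prm2 10791476 to 10792198, Prm3 10790600 to 10791006 and Tnp2 10788029 to 10788748. Prm3 had 5 reads in Clp1 KD and 0 in Ctr, too few to compare. Within about this stretch, then, the protamine genes were lower and the neighbouring transition protein gene higher in the same library.

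**Figure D3:**
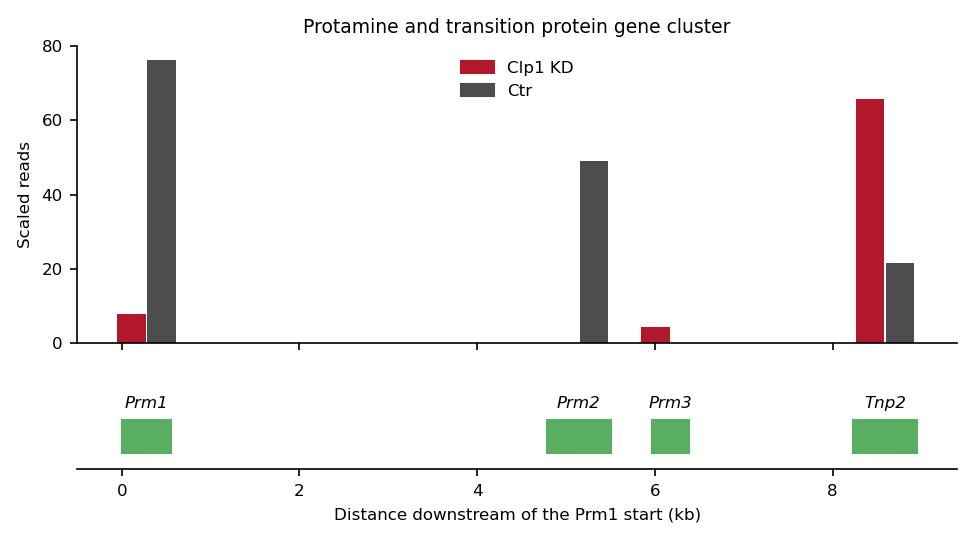
Scaled reads (upper panel, y axis, bars from 0, Clp1 KD left of Ctr) are drawn above the genes of the protamine cluster, placed by distance in kb downstream of the Prm1 start (x axis, green blocks are the annotated genes). Prm1 and Prm2 carried more reads in Ctr (76.4 and 49.0 scaled) and Tnp2 more in Clp1 KD (65.8 scaled).

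The promoters of Prm1, Prm2 and Tnp2 shared the letters TATA, the core of the site where the TATA-binding protein sits, although the genes moved in different directions. Prm3 was not looked up. The letters are shown in capitals within bases 45 to 16 before the start, for these 3 genes and for a start of Ldhc (RefSeq, GRCm38.p6, 5′ to 3′ on the strand of the gene), to set the neighbours side by side.
Prm1, chr16:10796839-10796868, minus strand: ggccactagtatcTATAagaggaagagggt
Prm2, chr16:10792121-10792150, minus strand: cagtggggtttaccttTATAtatgagccct
Tnp2, chr16:10788671-10788700, minus strand: tcggcccagcTATAtaactaggggctgtgg
Ldhc, chr7:46861218-46861247, plus strand: acgttccttttccgtTATAactgttggctc
The letters TATA on the strand of the gene, between 45 and 10 bases before the start, were in 4 of 9 sperm structure genes (44.4%) against 8.63% of all genes, a search chosen after the values were seen. They were in 3 of 5 genes called lower and in 1 of 8 called higher. The other start of Ldhc did not hold them. Of the whole set, 7 of 26 genes held them (26.9%), among them Sycp3, Tdrd7 and Zp3, which are not sperm structure genes.

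Of the sperm isoenzymes of glycolysis, Pgk2 and Ldhc were at 0 in Clp1 KD. Pgk2, the intronless testis copy of phosphoglycerate kinase, had 0 reads in Clp1 KD against 87 in Ctr, 37.7-fold lower at the floor (interval below -4.91). Its copy in other tissues, Pgk1, had 1606 reads in Clp1 KD and 1227 in Ctr (0.01, -0.10 to 0.12). Ldhc, the sperm lactate dehydrogenase, had 0 reads in Clp1 KD against 10 in Ctr, 4.33-fold lower at the floor (interval below -1.54). Ldha, its relative in somatic tissues, had 12874 reads in Clp1 KD and 12372 in Ctr (-0.32). Gapdhs, the sperm form of another glycolytic enzyme and a gene outside the set that was named after its values were seen, was higher, with 48 reads in Clp1 KD and 10 in Ctr (1.88, 0.88 to 3.03). Pgk2 and Ldhc and their somatic relatives gave ratios that did not overlap, and reads of near-identical stretches could have been assigned to either.

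Odf1, of the outer dense fibres of the sperm tail, had 17 reads in Clp1 KD and 24 in Ctr (-0.88, -1.86 to 0.08). Acrbp, which binds the protease acrosin in the acrosome, had 119 reads in Clp1 KD and 84 in Ctr (0.12, -0.29 to 0.54). Acrbp shares 932 of 3277 exon bases with Ing4, on the same strand, and Ing4 had 1844 reads in Clp1 KD and 1066 in Ctr. Acr, which encodes acrosin, Crisp2, of the acrosome and tail, and Tex101, a surface protein of germ cells, had 0 reads in both libraries. A count of 0 allows up to 3 reads, which for Acr is 0.0534 RPKM in Clp1 KD and 0.0705 RPKM in Ctr. Over the role the reads summed to 226 in Clp1 KD and 366 in Ctr.

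In the group labelled germ cell regulators, which takes in the bridge gene Tex14, 2 of 3 genes were higher. Among all genes, 42.8% with 10 to 99 reads and 24.7% with 100 to under 1000 reads were called higher. Dazl, an RNA-binding protein of germ cells, had 160 reads in Clp1 KD against 9 in Ctr (3.77, 2.81 to 4.93). Dmrt1, a transcription factor of the testis, had 35 reads in Clp1 KD against 0 in Ctr, 8.97-fold higher at the floor (interval above 2.79). Tex14, of the bridges between germ cells, had 240 reads in Clp1 KD and 96 in Ctr (0.94, 0.60 to 1.30), which was under the 2-fold limit. All 3 ratios were above 0.

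Neither gene of the oocyte coat was called. Zp2, a zona pellucida protein that sperm bind, had 936 reads in Clp1 KD and 638 in Ctr (0.17, 0.03 to 0.32), or 11.3 and 10.2 RPKM in Clp1 KD and Ctr, the highest level per length of the set in Ctr. Zp3, another zona protein, had 38 reads in Clp1 KD and 56 in Ctr (-0.94, -1.57 to -0.32).

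**Figure D4:**
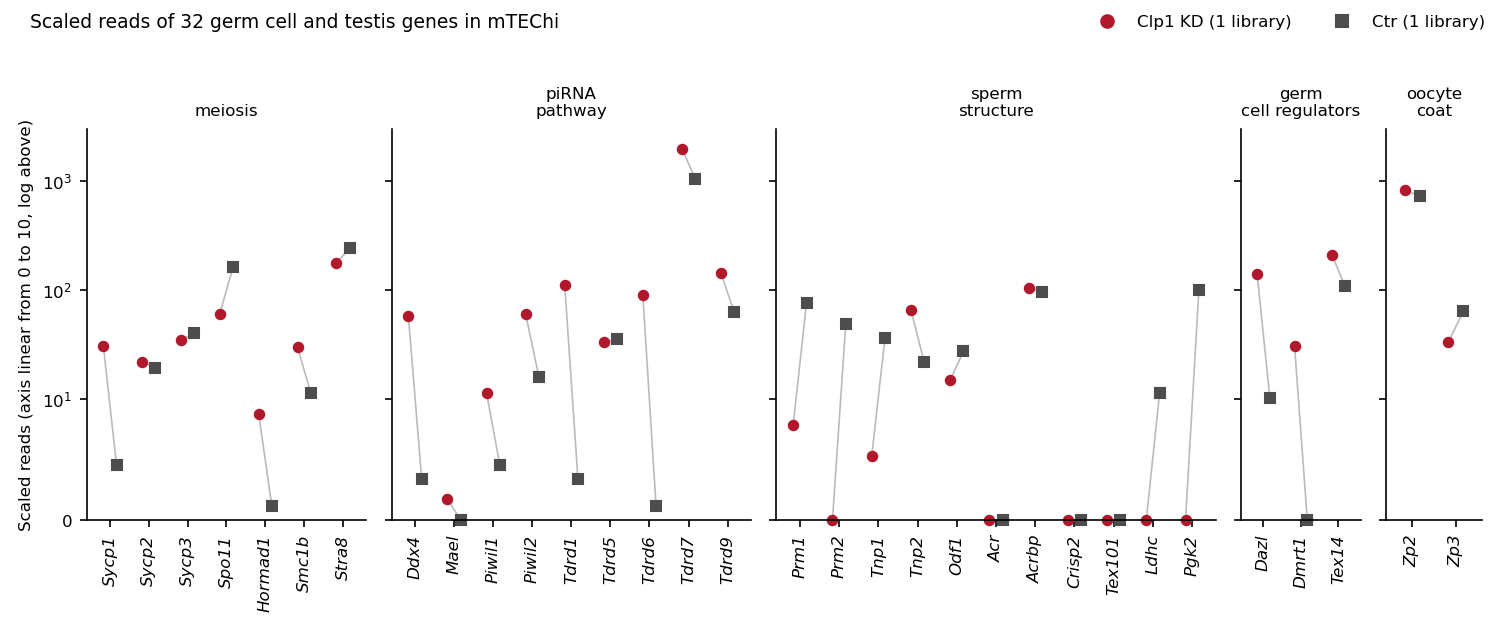
Scaled reads of the 32 genes (y axis, linear to 10 and logarithmic above) are plotted by gene and role (x axis), with a red circle for the Clp1 KD library and a grey square for the Ctr library. Tdrd7 and Zp2 were the most abundant in both libraries, and Acr, Crisp2 and Tex101 were at 0 in both.

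Levels per length were low for most of the set. In Clp1 KD 24 of 32 genes lay under 1 RPKM, and in Ctr 20 of 32. The median was 0.399 RPKM in Clp1 KD and 0.292 RPKM in Ctr, beside 2.44 and 2.70 RPKM over all genes in Clp1 KD and Ctr. At least 1 read was seen for 26 of the 32 in Clp1 KD and for 27 in Ctr. Dmrt1 and Mael were read in Clp1 KD and not in Ctr, and Prm2, Ldhc and Pgk2 in Ctr and not in Clp1 KD.

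Other genes of the same roles, from lists of 122 symbols of which 116 matched, were read in the same way and set beside the set. The lists were chosen with earlier results of these data known, so they are not an independent check of the directions. In the wider piRNA list, 3 of 14 genes were higher in Clp1 KD and 4 lower (median log2 ratio -0.27). In the wider sperm list, 15 of 31 were higher and 8 lower (median 0.76), and in the wider meiosis list 13 of 25 were higher and 6 lower (median 1.01). In the wider oocyte list, 7 of 16 were higher and 4 lower (median 0.37). The share over the 4 lists was 44.2% higher and 25.6% lower, against 21.9% and 19.7% of all genes with at least 10 reads. The medians of the piRNA and sperm genes of the set (1.56 and -2.94) thus had the opposite sign from those of the wider lists. For the piRNA pathway this did not hold with every transcript counted apart, where the medians were 4.35 for the set and 0.04 for the wider list. Over the 4 wider lists, 22 of 41 genes with 10 to 99 reads were higher and 12 lower (53.7% and 29.3%, against 42.8% and 30.3% of all such genes), and 14 and 10 of 38 genes from 100 to under 1000 reads (36.8% and 26.3%, against 24.7% and 26.8%). At 1000 or more reads, 2 of 7 were higher and 0 lower (28.6% and 0%, against 11.3% and 9.77%). With both lists joined, 8 of 22 piRNA genes were higher and 4 lower (median 0.40), and 16 of 39 sperm genes were higher and 13 lower (median 0.27).

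**Figure D5:**
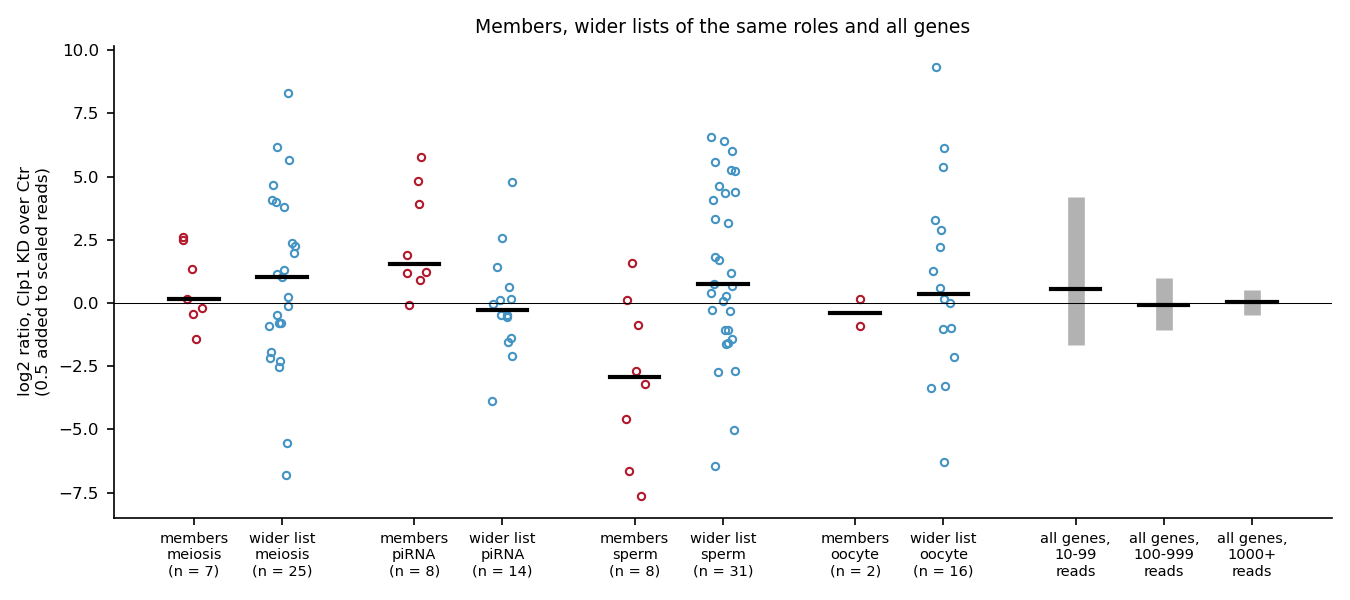
Each circle is a gene with at least 10 reads, placed by its log2 ratio of scaled reads with 0.5 added, Clp1 KD over Ctr (y axis), for the genes of the set (red) and the wider lists of the same roles (blue); black bars are medians and grey bars the interquartile range of all genes by read total. The set and the wider lists gave medians of opposite sign for the piRNA pathway (1.56 and -0.27; 4.35 and 0.04 with every transcript counted apart) and for sperm structure (-2.94 and 0.76).

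Among the wider meiosis genes, Mei4, needed for meiotic DNA breaks, had 995 reads in Clp1 KD and 345 in Ctr (1.15, 0.97 to 1.33), and Mlh3, of crossover formation, had 832 in Clp1 KD and 164 in Ctr (1.96, 1.72 to 2.21). Syce2, of the central element, had 363 reads in Clp1 KD and 240 in Ctr (0.22). Hfm1, a helicase of crossover formation, had 181 reads in Clp1 KD against 0 in Ctr, 46.4-fold higher at the floor (interval above 5.22). Mei1, also needed for meiotic breaks, had 3 reads in Clp1 KD against 126 in Ctr (-5.77, -8.07 to -4.19). Genes needed for the same step, such as Mei4 and Mei1, were therefore called in opposite directions.

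In the wider piRNA list, Tdrd3, a widely expressed Tudor domain gene, had 1191 reads in Clp1 KD and 153 in Ctr (2.58, 2.34 to 2.83). Dnmt3l, a partner of the germ line DNA methyltransferases, had 717 reads in Clp1 KD and 568 in Ctr (-0.04), and Henmt1, which methylates the 3′ ends of piRNAs, had 512 in Clp1 KD and 251 in Ctr (0.65). Rnf17, a Tudor domain gene of spermatids, was lower, with 11 reads in Clp1 KD against 131 in Ctr (-3.95, -4.99 to -3.07). Tudor domain genes were thus found in both directions.

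Of the wider sperm genes, Odf2 had 1398 reads in Clp1 KD and 1329 in Ctr (-0.31), Insl6, a relaxin-like gene, had 984 in Clp1 KD and 709 in Ctr (0.09), and Zpbp, of the acrosome, had 126 in Clp1 KD and 260 in Ctr (-1.42, -1.74 to -1.11). Catsper4, of the sperm calcium channel, had 54 reads in Clp1 KD against 0 in Ctr, 13.8-fold higher at the floor (interval above 3.44). Spag6, of the axoneme, had 4 reads in Clp1 KD against 306 in Ctr (-6.64, -8.52 to -5.26). Of the wider oocyte genes, Ooep and Khdc3, of the maternal complex under the egg surface, had 1596 and 585 reads in Clp1 KD and 1103 and 448 in Ctr (0.15 and 0.01). Tcl1 had 368 reads in Clp1 KD against 0 in Ctr, 94.4-fold higher at the floor (interval above 6.25). Zp1, the third zona gene, had 1 read in Clp1 KD against 93 in Ctr (-6.92, -12.24 to -4.40). The most abundant genes of these lists, Insl6, Odf2, Ooep and Khdc3, had ratios within 2-fold, while the largest ratios named here were those of genes near 0 in a library. Other genes of these lists were beyond 2-fold, in both directions, with both libraries above the floor of 3 reads.

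The spread of ratios narrowed with depth over the whole table. The standard deviation of the log2 ratio across genes was 3.75 for genes with 10 to 99 reads, 2.45 from 100 to under 1000 reads and 0.98 for 1000 or more. The 2 genes of the set with 1000 or more reads, Tdrd7 and Zp2, were called neither way, and 11.3% and 9.77% of all such genes were called higher and lower.

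The position of reads along the transcripts was compared for the 15 genes of the set with at least 10 such reads in each library. A median of 32.7% of the reads lay in the last exon in Clp1 KD and 29.4% in Ctr, where the last exon made up a median of 17.1% of the length. The share was higher in Clp1 KD for 8 genes and lower for 7. Tdrd9 had 32.7% of its reads in the last exon in Clp1 KD against 85.5% in Ctr, and Piwil2 had 79.7% in Clp1 KD against 0% of 14 reads in Ctr. Spo11 had 46.4% in Clp1 KD against 68.5% in Ctr. The shares were closer for Zp2 (10.1% in Clp1 KD, 8.99% in Ctr) and Stra8 (28.7% in Clp1 KD, 29.4% in Ctr). The reads of some genes thus came from different parts of the transcript in the 2 libraries.

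The d3'UTR ratio, reads per length of the distal 3'UTR over those of the last exon before it, could be formed for few of these genes. Only Acr, Ldhc and Dmrt1 had a proximal site in the table of transcript parts. For Dmrt1 the ratio was 0.88 in Clp1 KD, from 14 reads upstream and 18 downstream of the site, with 0 reads in Ctr. Acr had 0 reads and Ldhc had 0 reads in either part of its last exon. Dmrt1 and Ldhc were also the 2 genes of the set in the study's list of 967 Aire-sensitive transcripts with proximal sites, and they went in opposite directions.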

How the data were processed

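The authors deposited whole-number counts of reads lying fully within RefSeq exons, for 30794 transcripts and, in a second file, for parts of 27567 transcripts, without normalization; reads across exon junctions were not counted. Per the submitters' processing notes, Bowtie 1.0.0, bedtools, DESeq and the mm9 genome were used. Strand use and duplicate removal for these libraries are not stated in the sources used. The authors' table of fold changes and p-values was not used.

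Symbols came from RefSeq identifiers (30216 transcripts matched); coordinates from NCBIM37 with GENCODE vM1; promoters from RefSeq (GRCm38.p6). For scaling, median-of-ratios size factors were computed over all transcripts (1.14 for Clp1 KD, 0.877 for Ctr). Single genes carry the plain log2 ratio, and medians of lists the ratio after 0.5 was added to scaled reads. RPKM is reads per kb of transcript, scaled to the reads of the library. The floor of 3 reads is 2.63 scaled reads in Clp1 KD and 3.42 in Ctr. Every gene of the set with 10 or more reads is named; of each wider list, the 3 with most reads and the called gene in each direction whose interval bound lay farthest from 0. The members and lists were chosen with earlier results of these data known. Alternatives were another scaling (total reads, TMM), another minimum (1 or 50 reads), 1 in place of 0.5, the longest or every transcript in place of the most read, and counts without the distal 3'UTR. Scripts (Python 3.11.15, scipy 1.17.1, R 4.3.3, edgeR 4.0.16 for TMM factors) were tested on simulated data.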

Additional observations from a re-analysis of the deposited data

How the results depend on the processing

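Neither total-read nor TMM scaling changed a call or a direction of the 28 genes of the set, and they moved all log2 ratios by -0.02 and 0.002. With a minimum of 50 reads, 7 genes were higher in Clp1 KD and 3 lower of 18. With every transcript counted apart, 17 of 38 were higher and the median of the piRNA pathway was 4.35, since isoforms share reads. The median of the wider meiosis list was 0.22 with a minimum of 1 read, 0.22 with a minimum of 50 and 0.34 over every transcript, and that of the wider oocyte list was 0.080 with a minimum of 1 read and over every transcript. With counts summed over transcript parts without the distal 3'UTR, Ldhc fell under 10 reads and lost its call (log2 ratio -4.27 with 0.5 added). Its distal part held 0 reads, and the fall came from the part counts, with 8 reads in Ctr against 10 for the whole transcript. The other 27 genes kept their calls. Of the 28, only Dmrt1 and Ldhc had a distal part, so for the rest this setting removed nothing from the distal 3'UTR. The signs of the piRNA and sperm structure medians of the set held under each of these alternatives. The median of its meiosis genes turned to -0.44 with a minimum of 50 reads and to -0.18 over every transcript, and that of the wider piRNA list was -0.04 with a minimum of 1 read and turned to 0.04 over every transcript. No paired analysis was possible because each group had 1 library and the labels carry no replicate numbers. With 1 library per group, none could be left out. Depth limits the set, since 18 of 28 genes had fewer than 100 reads over both libraries.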

Other observations

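Marker genes of spermatogonia and of testis somatic cells were also read in mTEChi. Of the spermatogonial list, 7 of 10 genes had enough reads, and the median log2 ratio was -0.09, with 0 called higher and 1 lower. Over all genes with at least 10 reads, 21.9% were called higher and 19.7% lower. Utf1, a chromatin factor of undifferentiated germ cells, had 6838 reads in Clp1 KD and 5421 in Ctr (-0.04, -0.10 to 0.01), more reads than any gene of the set. Nanos2, of spermatogonial stem cells, had 0 reads in both libraries.

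Of the list of testis somatic cells, 10 of 12 genes had enough reads, 2 were higher and 3 lower in Clp1 KD, and the median log2 ratio was -0.23. These shares of 20% and 30% lay near those of all genes with 100 to under 1000 reads (24.7% and 26.8%). Hsd3b6, a steroid enzyme of Leydig cells, had 404 reads in Clp1 KD against 0 in Ctr, 104-fold higher at the floor (interval above 6.39). Inha, the inhibin alpha subunit of Sertoli cells, had 262 reads in Clp1 KD and 18 in Ctr (3.48, 2.80 to 4.26). Gata4, a transcription factor of gonadal somatic cells, had 19 reads in Clp1 KD against 660 in Ctr (-5.50, -6.24 to -4.84). Lhcgr, the luteinizing hormone receptor, had 0 reads in Clp1 KD against 23 in Ctr, 9.97-fold lower at the floor (interval below -2.90). These genes were named after their values were seen.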
